A study of Homo sapiens with 12 samples.

Results

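QKI and RBFOX2 are RNA-binding proteins that set which exons of a pre-mRNA are kept. LRRFIP1, WNK1, DIAPH1, AFAP1L2, CAMKK2 and WBP2 are the genes for which the study's lists of events after loss of either protein hold the same splicing event with opposite directions. They are 6 of the 48114 genes in each deposited table, and all 6 were measured in both cell lines. In LRRFIP1, WNK1, DIAPH1, AFAP1L2 and CAMKK2 the event is a cassette exon listed with a higher splicing index without QKI and a lower one without RBFOX2. In WBP2 it is the retention of introns around an exon, listed with the reverse directions. The study's text describes shared events as following a common direction, so the opposite directions rest on the list entries alone, and exon inclusion was not measured here. The genes were chosen on splicing in the same libraries whose totals are described here. Their totals in the knockdown comparisons are therefore a description. No p-value is given for them, and whether a total passed the threshold of the fit is noted only beside the share of all genes that did.

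Polyadenylated RNA was sequenced from 12 libraries of 2 human cell lines of pancreatic ductal adenocarcinoma. PANC-1, used in the study as a basal-like line, was transfected with a control siRNA (siCtrl), with siRNA against QKI (siQKI, 40 nM) or with siRNA against RBFOX2 (siRBFOX2, 40 nM), and RNA was collected after 48 h, with 3 libraries per group. HPAF-II, used as a classical line, received siCtrl (3 libraries). For HPAF-II the condition is known from the labels only, as the methods cover transfection of PANC-1. The replicates are described as biological, with no word on separate days or passages, so p-values measure only the spread between these libraries, part of which may be technical.

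A cassette exon can be spliced in or skipped, which gives different proteins from the same gene. QKI belongs to the STAR family and binds ACUAA-type elements, and RBFOX2 binds GCAUG elements. For both, binding downstream of an exon is known to favour inclusion and binding upstream to favour skipping. A gene's total count sums all of its isoforms, so it does not show how much of an exon is included. The totals show how much RNA of each gene was present when the exon choice was altered. In bulk RNA, fewer cells with a transcript and less transcript per cell cannot be told apart.

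The exons at the listed events are shown for the 5 genes where the listed positions have a match in the GENCODE v29 annotation of GRCh38. For WBP2 this is the exon between the retained introns and not the listed event itself. Exons are in capitals, with 15 bases of each neighbouring exon in lower case. Each is read 5′ to 3′ on the RNA strand from the transcript that holds it. WNK1 is cut after the first 120 bases of its exon.
LRRFIP1: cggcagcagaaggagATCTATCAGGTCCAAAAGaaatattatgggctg
CAMKK2: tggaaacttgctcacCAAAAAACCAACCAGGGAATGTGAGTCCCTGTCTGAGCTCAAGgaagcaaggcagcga
DIAPH1: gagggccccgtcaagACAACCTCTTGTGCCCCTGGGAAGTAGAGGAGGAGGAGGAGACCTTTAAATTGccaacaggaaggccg
WBP2: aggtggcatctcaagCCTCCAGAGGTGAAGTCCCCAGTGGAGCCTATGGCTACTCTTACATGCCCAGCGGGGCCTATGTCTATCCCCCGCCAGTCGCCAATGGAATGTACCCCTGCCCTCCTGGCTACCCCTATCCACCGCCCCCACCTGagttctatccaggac
WNK1: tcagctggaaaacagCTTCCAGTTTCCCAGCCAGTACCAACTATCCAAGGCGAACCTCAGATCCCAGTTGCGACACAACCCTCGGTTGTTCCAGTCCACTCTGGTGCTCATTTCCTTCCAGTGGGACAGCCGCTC

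The LRRFIP1 exon has 18 bases and lies at chr2:237714259-237714276 on the plus strand. The CAMKK2 exon has 43 bases at chr12:121244573-121244615 (minus), the DIAPH1 exon 53 bases at chr5:141518944-141518996 (minus), and the WNK1 exon 459 bases at chr12:879573-880031 (plus). The WBP2 exon, which the retained introns flank, has 135 bases at chr17:75847796-75847930 (minus). All 5 exons are coding throughout. The lengths of the LRRFIP1 and WNK1 exons are multiples of 3, so their skipping keeps the reading frame, and those of CAMKK2 and DIAPH1 are not. The length of the WBP2 exon is also a multiple of 3, but its listed event is the retention of introns, whose effect on the frame was not examined. The annotation holds 8 coding transcripts with the CAMKK2 exon and 3 that skip it, 9 and 1 for WBP2, 3 and 5 for WNK1, 1 and 4 for LRRFIP1, and 1 and 8 for DIAPH1. For DIAPH1 a second, non-coding exon lies in the listed span, and which of them the list means was not settled. The AFAP1L2 exon is listed at chr10:114319561-114319644 (84 bases, minus) and has no counterpart in this annotation.

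None of the 5 exons holds ACTAA or GCATG on the RNA strand, the core letters of the QKI and RBFOX elements, which do not overlap each other. Among internal exons of 135 bases in the annotation, 11.6% hold GCATG and 5.24% ACTAA, and among those of 459 bases 32.3% and 3.23%. For the short exons of 18, 43 and 53 bases the shares were 1.68% to 4.15%. The flanking introns, where these proteins mostly bind, were not searched.

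Both siRNAs lowered their target. QKI had 25533 ± 869 normalized counts (mean ± SD, n = 3) with siCtrl and 5034 ± 412 with siQKI, a log2 fold change of -2.34 (SE 0.06, limma adjusted p = 9.15e-13). RBFOX2 had 15429 ± 77 with siCtrl and 2095 ± 352 with siRBFOX2, a log2 fold change of -2.89 (SE 0.09, limma adjusted p = 4.7e-11). RBFOX2 also fell with siQKI, by 0.29 on the log2 scale (SE 0.09, limma adjusted p = 0.0207), while QKI was not called with siRBFOX2 (log2 fold change 0.13, limma adjusted p = 0.105). A normalized count is a gene count after the authors divided the library by its size factor. The library sums of these values lay between 321833858 and 348181159 in PANC-1, and their depth in sequenced fragments is unknown. Scaled to 1000000 counts per library, the mesenchymal marker VIM lay between 5310 and 5500 in PANC-1 siCtrl and between 0.283 and 15.2 in HPAF-II, and the epithelial marker CDH1 between 2.80 and 2.94 and between 162 and 220. Of the 3 classical markers listed, GATA6 and MUC13 were higher in HPAF-II and TFF1 was under 1 in both lines. PTPRC and PECAM1, which mark leukocytes and endothelium, were at or near 0 in all 6 control libraries.

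AFAP1L2 (also called XB130) is an adaptor of the actin-filament-associated protein family that passes tyrosine kinase signals to phosphoinositide 3-kinase. Its total was 29707, 30432 and 28567 normalized counts in the siCtrl libraries, 39745, 38922 and 35932 in siQKI, and 31820, 33771 and 32270 in siRBFOX2. The 3 groups did not overlap, with siCtrl lowest, siRBFOX2 between and siQKI highest. The log2 fold change against siCtrl was 0.37 (SE 0.05) for siQKI and 0.14 (SE 0.05) for siRBFOX2, which is 29.2% and 10.3% above the siCtrl mean. The siQKI mean was 17.1% above that of siRBFOX2. The siRBFOX2 difference did not pass the threshold without siCtrl replicate 1 (0.15), without siCtrl replicate 3 (0.12) or without siRBFOX2 replicate 2 (0.12). In these settings 23.5%, 21.6% and 22.3% of all tested genes passed.

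Both paralogs of AFAP1L2 were lower with siQKI. AFAP1L1 fell from 12826 ± 575 to 8152 ± 461 normalized counts with siQKI, by 0.65 on the log2 scale (SE 0.05, limma adjusted p = 2.13e-07), and had 11720 ± 184 with siRBFOX2 (adjusted p = 0.0864). The difference between the knockdowns in AFAP1L1 was itself past the threshold (log2 siQKI minus siRBFOX2 -0.53, limma adjusted p = 4.49e-06). AFAP1, the founding family member, fell by 0.17 with siQKI (adjusted p = 0.0018) and by 0.12 with siRBFOX2 (adjusted p = 0.0233). The siRBFOX2 call in AFAP1 was lost without siCtrl replicate 1 (-0.11), without siCtrl replicate 2 (-0.12), without siRBFOX2 replicate 3 (-0.11), and after upper-quartile rescaling (-0.09). PIK3R1, the regulatory subunit of phosphoinositide 3-kinase that AFAP1L2 binds, rose with siQKI from 2118 ± 64 to 2775 ± 172 (log2 fold change 0.39, adjusted p = 0.00207) and was not called with siRBFOX2 (-0.12). Of the 4 listed relatives and partners of AFAP1L2, 3 passed the test with siQKI, 1 higher and 2 lower, and 1 passed with siRBFOX2, lower. For this and the other counts of listed partners, the share called was 33.0% of all tested genes and 58.9% of those with a mean of at least 5000 with siQKI, and 26.5% and 49.7% with siRBFOX2.

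DIAPH1 is a formin that nucleates and elongates unbranched actin filaments under control of small GTPases. Its total was 75080, 75159 and 78944 normalized counts in siCtrl, 78912, 78698 and 77778 in siQKI, and 65038, 64429 and 65948 in siRBFOX2. The siQKI and siCtrl libraries overlapped, whereas all siRBFOX2 libraries lay below both other groups. The log2 fold change was 0.04 (SE 0.03) for siQKI and -0.23 (SE 0.03) for siRBFOX2, whose mean differed from that of siCtrl by -14.7%. After upper-quartile rescaling the siQKI value was 0.10, past the threshold, beside 32.3% of all tested genes. DIAPH1 was the member with the largest gap between the knockdowns in the upward direction (siQKI minus siRBFOX2 0.27, SE 0.03).

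Around DIAPH1, 9 of 12 listed genes passed the test with siQKI (2 higher, 7 lower) and 8 of 12 with siRBFOX2 (1 higher, 7 lower), beside 33.0% and 26.5% of all tested genes. The paralog DIAPH3 fell with siQKI by 0.22 (SE 0.06, limma adjusted p = 0.00626) and with siRBFOX2 by 0.37 (SE 0.06, adjusted p = 0.000178). DIAPH2 fell by 0.17 with siQKI (adjusted p = 0.0255) and had a log2 fold change of -0.14 with siRBFOX2 (adjusted p = 0.0665). The DIAPH2 call was lost without siCtrl replicate 1 (-0.14), siQKI replicate 1 (-0.17) or siQKI replicate 2 (-0.14), and after upper-quartile rescaling (-0.11).

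Among the GTPases that open DIAPH formins, RHOB fell with siRBFOX2 from 44732 ± 2129 to 27122 ± 2484 normalized counts, by 0.72 on the log2 scale (SE 0.07, limma adjusted p = 1.68e-06). With siQKI RHOB fell by 0.23 to 38250 ± 3113 (adjusted p = 0.0152), a call lost without siCtrl replicate 2 (-0.20), siCtrl replicate 3 (-0.22), siQKI replicate 2 (-0.20) or siQKI replicate 3 (-0.19), and after upper-quartile rescaling (-0.17). The knockdowns differed in RHOB by 0.50 (limma adjusted p = 6.77e-05). The actin monomer-binding PFN2 fell by 0.26 with siQKI (limma adjusted p = 4.72e-05) and fell by 0.42 with siRBFOX2 (adjusted p = 7.13e-07). SRF, the transcription factor that answers to actin polymerization through the MRTF coactivators, fell with siQKI from 15829 ± 315 to 8604 ± 399, by 0.88 on the log2 scale (SE 0.05, adjusted p = 6e-09), and fell by 0.40 with siRBFOX2 (adjusted p = 3.36e-05). The coactivators themselves went up with siQKI. MRTFB rose from 16096 ± 831 to 26297 ± 908 (log2 fold change 0.71, adjusted p = 7.86e-08) and to 22512 ± 1250 with siRBFOX2 (0.48, adjusted p = 6.65e-06). MRTFA rose by 0.39 with siQKI (adjusted p = 0.000142) and was not called with siRBFOX2 (0.15, adjusted p = 0.0814), although that value passed without siQKI replicate 1 (0.15, adjusted p = 0.0458) and after upper-quartile rescaling (0.18).

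LRRFIP1 binds the actin-remodelling protein FLII and double-stranded nucleic acids, and takes part in innate sensing and Wnt signalling. Its total was 23755, 21963 and 24286 normalized counts in siCtrl, 18032, 18591 and 19503 in siQKI, and 22342, 23354 and 22748 in siRBFOX2. All siQKI libraries lay below all others, and the siRBFOX2 libraries lay within the siCtrl range. The log2 fold change was -0.32 (SE 0.05) for siQKI, a difference of -19.8% from the siCtrl mean, and -0.03 (SE 0.05) for siRBFOX2. The siQKI value of LRRFIP1 was the lowest log2 fold change of any member over the 3 comparisons. With siRBFOX2, WBP2 and DIAPH1 had lower values than LRRFIP1.

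The LRRFIP1 count has a neighbour that touches it. In the deposited tables the row of MLPH, a melanosome transport adaptor, runs over chr2:237486410-237828698 and spans all of LRRFIP1 (chr2:237627587-237781643). Whether reads were assigned by strand or shared between such rows is not given in the sources used here. MLPH, named after its values were seen, had 15613 to 16284 normalized counts in siCtrl, 10570 to 10998 in siQKI and 10748 to 11629 in siRBFOX2. It was therefore lower in both knockdowns (log2 fold change -0.57, limma adjusted p = 1.92e-07 and -0.51, limma adjusted p = 1.24e-06), unlike LRRFIP1. With both rows summed, the LRRFIP1 log2 fold change was -0.42 for siQKI and -0.21 for siRBFOX2. For the other members no overlapping row averaged over 228 normalized counts.

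All 5 listed partners of LRRFIP1 passed the test with siQKI, 3 higher and 2 lower, beside 33.0% of all tested genes and 58.9% of those with a mean of at least 5000, which these 5 also reach. FLII, for which LRRFIP1 is named, fell from 67790 ± 1748 to 50333 ± 1360 normalized counts with siQKI, by 0.43 on the log2 scale (SE 0.04, limma adjusted p = 5.44e-07), and had 69142 ± 1802 with siRBFOX2. The knockdowns differed in FLII by -0.46 (limma adjusted p = 6.8e-07), with siQKI lower. The paralog LRRFIP2 fell by 0.26 with siQKI (adjusted p = 0.00127). With siRBFOX2 LRRFIP2 had a log2 fold change of -0.11 that passed only without siCtrl replicate 2 (-0.16, adjusted p = 0.0371). The Wnt effector CTNNB1 rose by 0.22 with siQKI (adjusted p = 0.000942). With siRBFOX2 CTNNB1 had 0.12 (adjusted p = 0.0607), which passed without siCtrl replicate 3 (0.15), without siRBFOX2 replicate 2 (0.14) and after upper-quartile rescaling (0.15). Of the 5, only MYD88, the adaptor of Toll-like receptors, passed with siRBFOX2, from 29177 ± 1042 to 39477 ± 1669 (log2 fold change 0.44, adjusted p = 1.21e-05). MYD88 rose by 0.18 with siQKI (adjusted p = 0.0102), a call lost without siQKI replicate 1 (0.13).

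WNK1 is a kinase that senses chloride and osmotic stress and activates the kinases OXSR1 and STK39, which in turn control cation-chloride cotransporters. Its total was 65257, 61773 and 61565 normalized counts in siCtrl, 72461, 73963 and 76736 in siQKI, and 64729, 68588 and 60071 in siRBFOX2. All siQKI libraries lay above all others, and siRBFOX2 overlapped siCtrl on both sides. The log2 fold change was 0.24 (SE 0.05) for siQKI and 0.03 (SE 0.05) for siRBFOX2.

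The largest response in the list of 55 partners and paralogs among genes over 100 normalized counts belonged to WWTR1, described with WBP2, and the next to OXSR1. OXSR1 rose from 9785 ± 265 normalized counts to 20542 ± 1308 with siQKI (log2 fold change 1.07, SE 0.05, limma adjusted p = 1.52e-09) and to 18618 ± 813 with siRBFOX2 (0.93, SE 0.05, adjusted p = 1.5e-08). No siCtrl library of OXSR1 exceeded 10065 and no knockdown library was under 17700. The knockdowns did not differ past the threshold (siQKI minus siRBFOX2 0.14, SE 0.05, limma adjusted p = 0.0725). STK39, its close relative, rose by 0.35 with siQKI (adjusted p = 6.74e-05) and by 0.49 with siRBFOX2 (adjusted p = 5.55e-06). NEDD4L, a ubiquitin ligase that controls ion transport, fell by 0.42 with siQKI (adjusted p = 5.5e-05) and fell by 0.20 with siRBFOX2 (adjusted p = 0.0226), the latter call lost without siCtrl replicate 3 (-0.16) or siRBFOX2 replicate 2 (-0.17).

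WNK4 fell by 0.48 with siQKI (SE 0.13, limma adjusted p = 0.0092) and had -0.13 with siRBFOX2. WNK2 was not called in either (-0.04 and 0.15), although its siRBFOX2 value passed without siRBFOX2 replicate 3 (0.28, adjusted p = 0.0453). WNK3 was at 0 in all PANC-1 libraries. In all, 7 of the 12 tested relatives of WNK1 passed with siQKI (4 higher, 3 lower) and 5 with siRBFOX2 (3 higher, 2 lower).

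CAMKK2 is a calcium- and calmodulin-dependent kinase that phosphorylates AMPK and the kinases CAMK1 and CAMK4. Its total was 5565, 5510 and 5237 normalized counts in siCtrl, 6713, 6293 and 6957 in siQKI, and 6713, 6835 and 6095 in siRBFOX2. Both knockdowns lay above siCtrl without overlap and overlapped each other. The log2 fold change was 0.29 (SE 0.06) for siQKI and 0.27 (SE 0.06) for siRBFOX2, and the difference between the knockdowns was 0.02 (SE 0.06).

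The AMPK catalytic subunit PRKAA1 had 15396 ± 649 normalized counts with siCtrl, 10565 ± 125 with siQKI and 11480 ± 152 with siRBFOX2. PRKAA1 fell by 0.54 on the log2 scale with siQKI (SE 0.04, limma adjusted p = 2.85e-07) and fell by 0.42 with siRBFOX2 (SE 0.04, adjusted p = 6.48e-06). The regulatory subunit PRKAG1 fell by 0.56 with siQKI (adjusted p = 9.9e-07) and was not called with siRBFOX2 (-0.12, adjusted p = 0.0981). PRKAB2 rose by 0.36 with siRBFOX2 (adjusted p = 0.0257), a call lost without siCtrl replicate 1 (0.37), siCtrl replicate 3 (0.33), siRBFOX2 replicate 1 (0.27) or siRBFOX2 replicate 3 (0.32). The paralog CAMKK1 fell by 0.35 with siQKI (SE 0.09, adjusted p = 0.00683) and had -0.14 with siRBFOX2.

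CAMK4 was scarce, at 5.03 to 9.99 normalized counts in siCtrl, 33.1 to 64.5 in siQKI and 26.1 to 63.0 in siRBFOX2. Its log2 fold change was 2.71 (SE 0.68, limma adjusted p = 0.00606) and 2.52 (SE 0.68, adjusted p = 0.0122), and the siRBFOX2 call was lost without siRBFOX2 replicate 3 (2.24, adjusted p = 0.0577). Of 13 listed partners of CAMKK2, 6 passed with siQKI and 6 with siRBFOX2, each with 3 higher and 3 lower.

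WBP2 is a coactivator that binds the WW domains of YAP1, of WWTR1 (TAZ) and of ubiquitin ligases through PPxY motifs. Its total was 41552, 39884 and 42132 normalized counts in siCtrl, 36232, 35656 and 34067 in siQKI, and 33088, 33576 and 33748 in siRBFOX2. Both knockdowns lay below siCtrl without overlap, and siRBFOX2 lay below siQKI by a narrow margin. The log2 fold change was -0.22 (SE 0.04) for siQKI and -0.30 (SE 0.04) for siRBFOX2. Between the knockdowns it was 0.08 (SE 0.04), which did not pass the threshold, beside 21.5% of all tested genes that did.

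WWTR1 had 40748 ± 1412 normalized counts with siCtrl, 15924 ± 129 with siQKI and 28695 ± 840 with siRBFOX2. WWTR1 fell by 1.35 on the log2 scale with siQKI (SE 0.04, limma adjusted p = 9.09e-12) and fell by 0.51 with siRBFOX2 (SE 0.04, adjusted p = 4.47e-07). The knockdowns differed in WWTR1 by -0.85 (limma adjusted p = 3.27e-09), with siQKI lower. YAP1 was not called with siQKI (0.07, adjusted p = 0.109, but 0.14 and past the threshold after upper-quartile rescaling) and fell with siRBFOX2 by 0.30 (SE 0.03, adjusted p = 1.05e-05).

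The ubiquitin ligase NEDD4 moved in opposite directions. It had 12666 ± 858 normalized counts with siCtrl, 14739 ± 933 with siQKI (log2 fold change 0.22, limma adjusted p = 0.0125) and 9798 ± 511 with siRBFOX2 (-0.37, adjusted p = 0.000398), and the knockdowns differed by 0.59 (limma adjusted p = 7.28e-06). The siQKI rise of NEDD4 was lost without siCtrl replicate 2 (0.16) or siQKI replicate 2 (0.17). WWOX, a WW-domain oxidoreductase, rose by 0.27 with siQKI (adjusted p = 0.0226), a call lost without siCtrl replicate 3 (0.18), siQKI replicate 1 (0.27) or siQKI replicate 2 (0.25). The paralog WBP2NL, a sperm protein, had 18.3 to 130.0 normalized counts in siQKI against 7.04 to 8.99 in siCtrl and was not called (adjusted p = 0.0885). ESR1, the estrogen receptor that WBP2 coactivates, was at 0 in all PANC-1 libraries. Of 7 tested WBP2 partners, 3 passed with siQKI (2 higher, 1 lower) and 4 with siRBFOX2 (all lower).

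**Figure D1:**
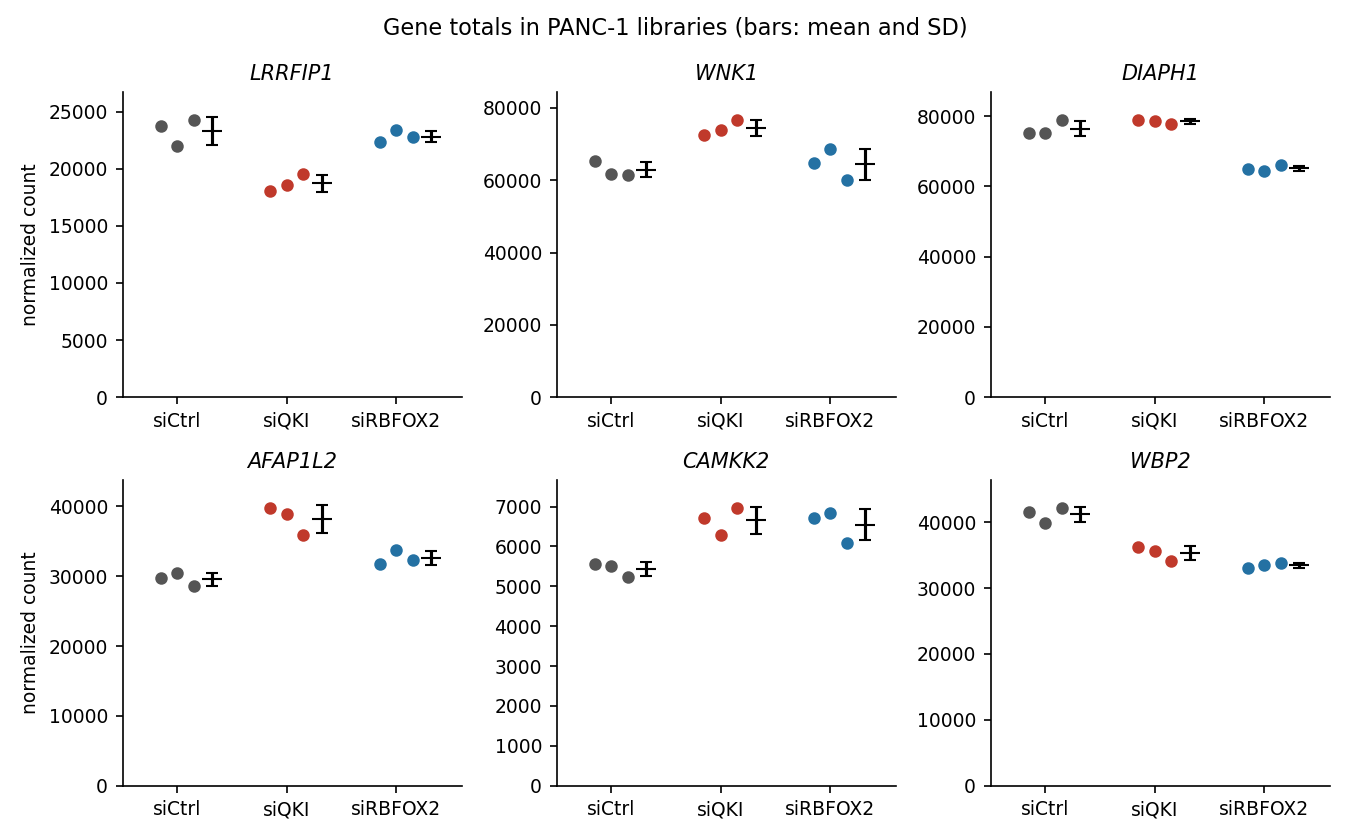
Normalized counts of the 6 genes in each PANC-1 library (1 point per library; y axes start at 0 and differ between panels), with the mean and SD of each group of 3. LRRFIP1 and WNK1 are set apart in siQKI alone, DIAPH1 in siRBFOX2 alone, and AFAP1L2, CAMKK2 and WBP2 in both knockdowns.

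Set side by side, the totals of the 6 genes took 3 forms. AFAP1L2 and CAMKK2 were higher and WBP2 lower than siCtrl in both knockdowns, WNK1 was higher and LRRFIP1 lower in siQKI alone, and DIAPH1 was lower in siRBFOX2 alone. Both knockdowns are measured against the same 3 siCtrl libraries. The libraries lay apart for 5 of 6 members with siQKI, 4 of 6 with siRBFOX2 and 5 of 6 between the knockdowns, beside 44.7%, 37.9% and 35.2% of all tested genes. The siQKI value passed the limma threshold (adjusted p under 0.05 over 22544 tested genes) for 5 of 6 members, beside 33.0% of all tested genes, and the siRBFOX2 value for 4 of 6 beside 26.5%. Between the knockdowns it was 4 of 6, beside 21.5%. The members have high counts, and among the 7308 tested genes with a mean of at least 5000 the shares were 58.9%, 49.7% and 41.0%. Since the rule used these libraries, nothing is read from the counts.

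**Figure D2:**
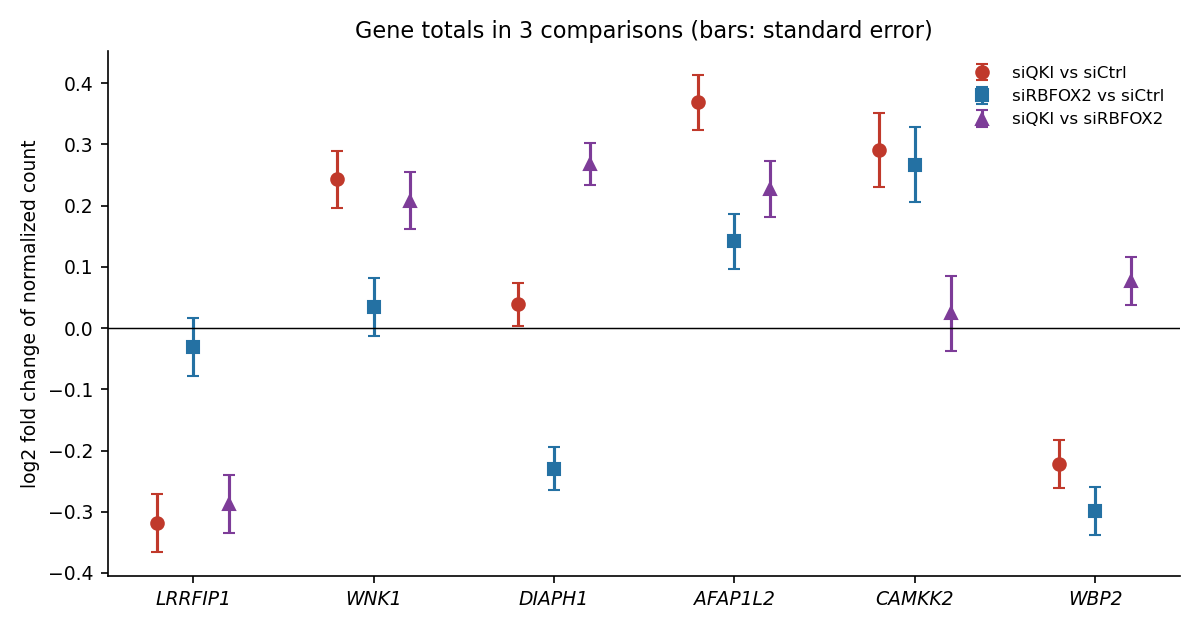
Log2 fold changes of the 6 gene totals with their standard errors (limma, 9 PANC-1 libraries) for siQKI against siCtrl, siRBFOX2 against siCtrl and siQKI against siRBFOX2. All values lie between -0.32 and 0.37, and the knockdowns stand nearest to each other in CAMKK2 and WBP2.

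No member reached a 1.5-fold change in any of the 3 comparisons. The largest was AFAP1L2 with siQKI, and 41.5% of all tested genes had a log2 fold change at least as large in size in that comparison. The median size of the log2 fold change over the members was 0.27 with siQKI and 0.19 with siRBFOX2, beside 0.29 and 0.25 over all tested genes. Over tested genes with a mean of at least 5000, which the members also reach, it was 0.177 and 0.145. For 88 genes with a shared event listed in the same direction in both knockdowns, chosen in the same libraries, it was 0.21 and 0.16, with 58 of 88 and 46 of 88 past the threshold (65.9% and 52.3%), near the 58.9% and 49.7% of tested genes with a mean of at least 5000.

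Of the 55 listed partners and paralogs, 53 were tested. With siQKI 15 rose, 18 fell and 20 did not pass, beside 33.0% of all tested genes called. With siRBFOX2 8 rose, 17 fell and 28 did not pass, beside 26.5%. After upper-quartile rescaling the split was 18 to 15 with siQKI and 12 to 16 with siRBFOX2. These too are mostly abundant genes, and the list was read against no other list. The rows of PRKAB2, WNK4, MRTFA, LRRFIP2, AFAP1, FLII and WBP2NL overlap another row with at least 10% of their own mean count. Their values are uncertain to that extent. The same holds for RBFOX2, whose row overlaps a row without a symbol at 49.7% of its mean count in PANC-1.

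**Figure D3:**
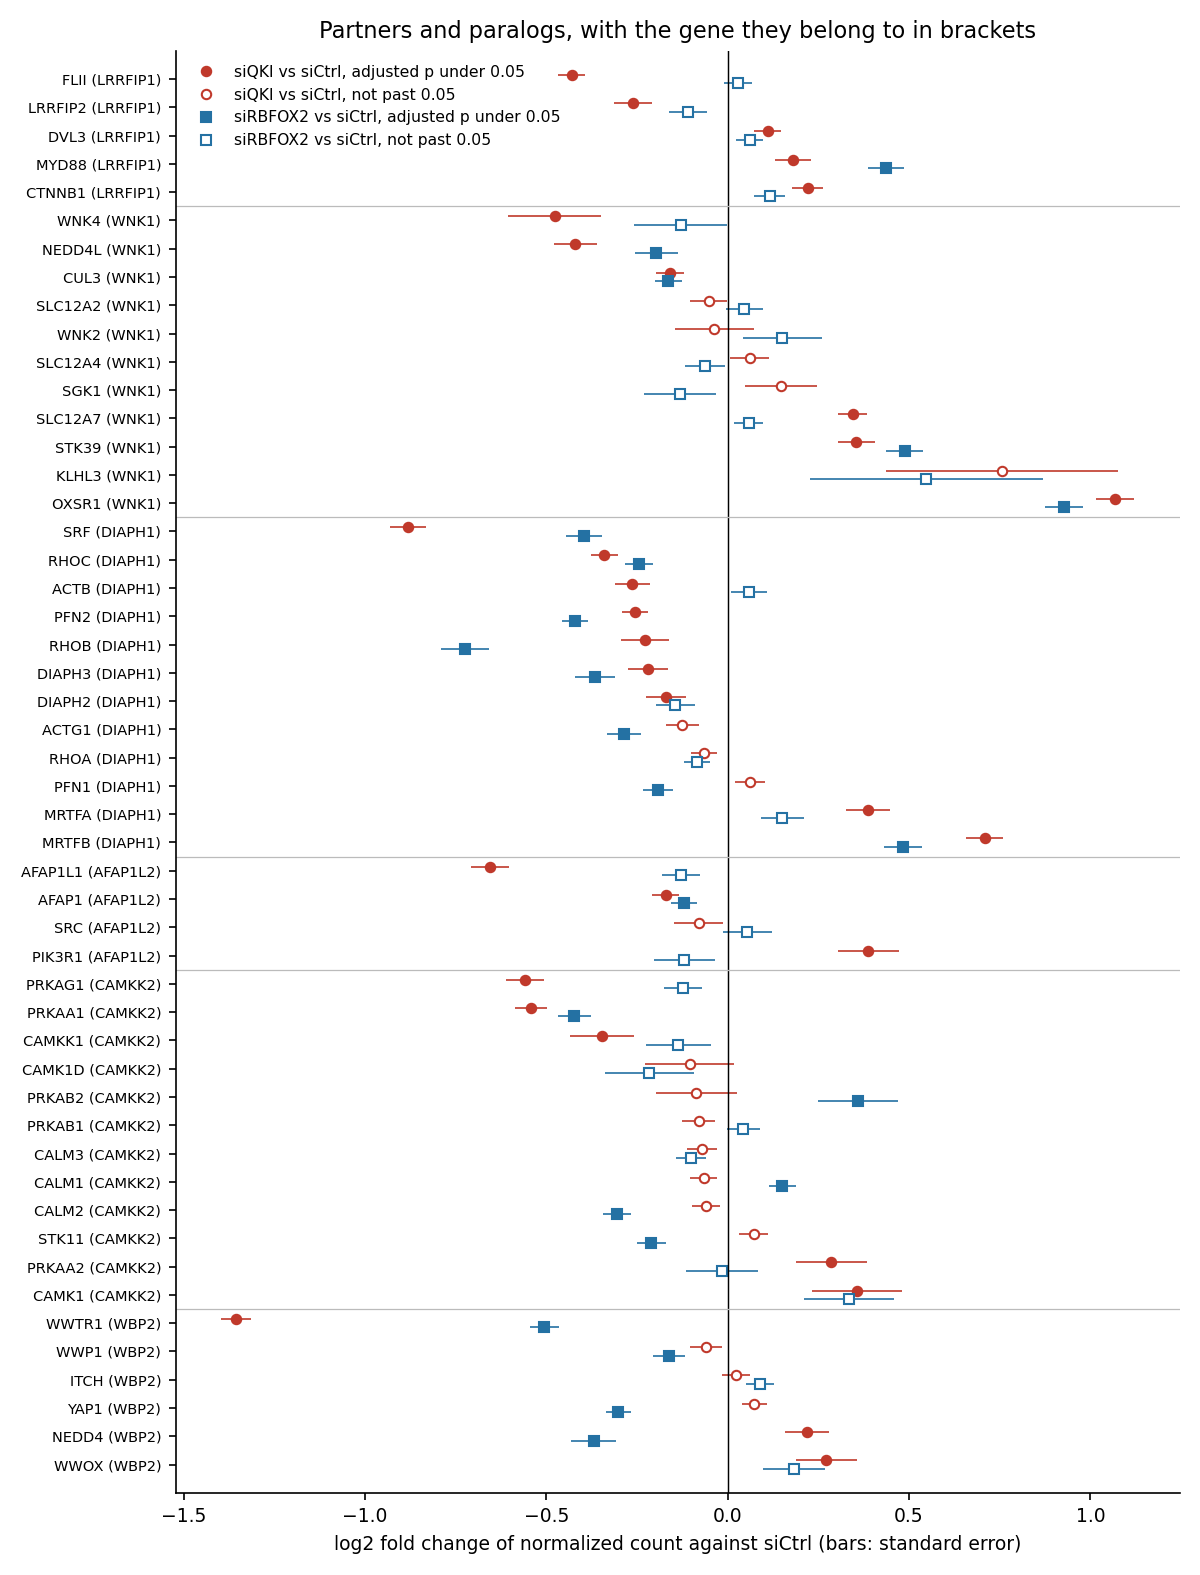
Log2 fold changes with standard errors for 50 of the partners and paralogs (red circles siQKI, blue squares siRBFOX2, both against siCtrl; filled where the limma adjusted p is under 0.05), grouped by the gene they belong to in brackets. CAMK4 and WBP2NL, which have low counts and wide errors, and 1 gene not reported here are not drawn. OXSR1 lies to the right and PRKAA1 and WWTR1 to the left in both knockdowns, and NEDD4 lies on opposite sides.

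The control libraries of both lines were set side by side as rescaled counts, so that each library sums to 1000000. No test was run, because the authors normalized the lines apart. AFAP1L2 had 13.2, 12.8 and 14.6 rescaled counts in HPAF-II and 87.7, 87.4 and 82.7 in PANC-1, a log2 ratio of -2.67, with a PANC-1 mean 6.35 times that of HPAF-II. It was the only member of 6 that differed by at least 2-fold, beside 52.4% of 24673 genes compared. Of these genes, 25.2% were at least 2-fold lower in HPAF-II. The share of 52.4% depends on the pseudocount. With a pseudocount of 1 on the rescaled scale it was 22.0%, and the number of members stayed at 1. No share was taken among genes as abundant as the members, so whether they differed less than such genes was not tested.

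DIAPH1 was higher in HPAF-II, with 376, 396 and 308 rescaled counts against 222, 216 and 229 (log2 ratio 0.70). WBP2 had 155, 151 and 161 against 123, 114 and 122 (0.38), and CAMKK2 had 18.1, 17.9 and 23.6 against 16.4, 15.8 and 15.2 (0.33). LRRFIP1 was lower in HPAF-II by a margin narrower than the spread within either line, with 56.5, 62.7 and 40.8 against 70.1, 63.1 and 70.3 (-0.35). WNK1 overlapped between the lines, with 175, 184 and 132 against 193, 177 and 178 (-0.16). The libraries of both lines were thus apart for 5 of 6 members, beside 63.7% of all genes compared, and for all 6 without HPAF-II replicate 2. HPAF-II replicate 3 was the lowest of its line for LRRFIP1, WNK1 and DIAPH1 and the highest for AFAP1L2, CAMKK2 and WBP2. The median log2 ratio over all genes was 0.08 under this scaling and -0.19 on the deposited values, on which CAMKK2 and WBP2 had log2 ratios of 0.05 and 0.10.

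**Figure D4:**
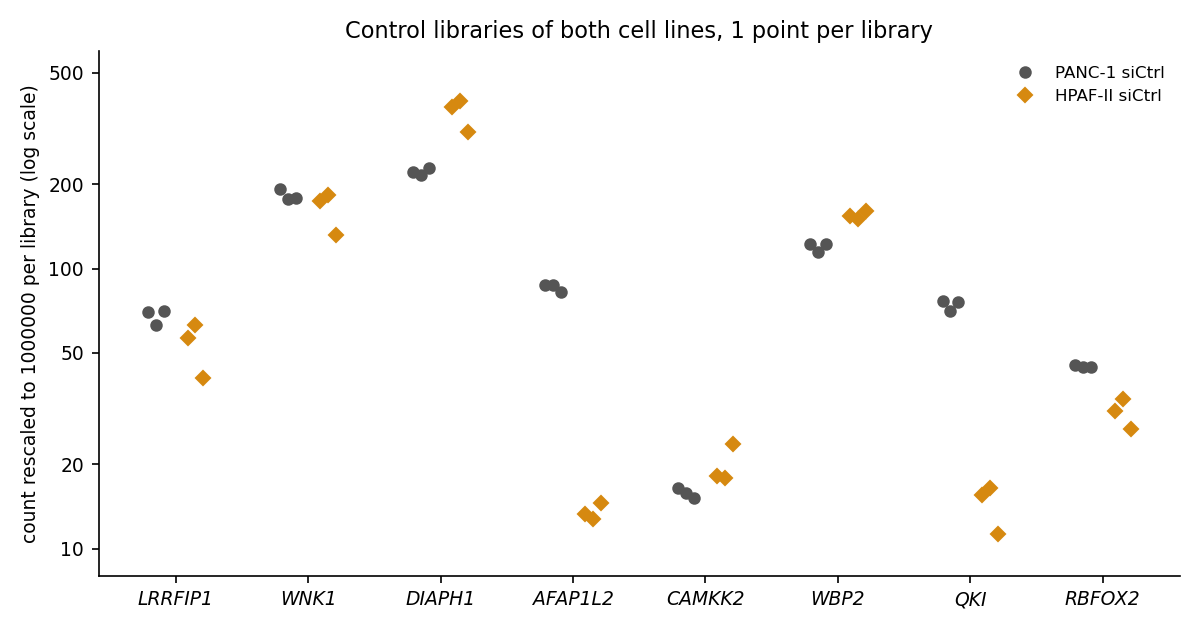
Counts rescaled to 1000000 per library (log axis) in the 3 PANC-1 siCtrl and 3 HPAF-II siCtrl libraries for the 6 genes and for QKI and RBFOX2, 1 point per library. AFAP1L2 and QKI are several-fold lower in HPAF-II, and the other members lie within 2-fold.

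The regulators also differed between the lines. QKI had 15.6, 16.5 and 11.3 rescaled counts in HPAF-II and 76.5, 70.5 and 75.7 in PANC-1 (log2 ratio -2.36), and RBFOX2 had 31.1, 34.1 and 26.7 against 45.3, 44.5 and 44.7 (-0.55). The members shared no direction between the lines, since AFAP1L2 and LRRFIP1 were lower in HPAF-II, DIAPH1, CAMKK2 and WBP2 higher, and WNK1 overlapped. On the deposited values without rescaling, WNK1 was lower in HPAF-II without overlap (37393 to 52718 against 61565 to 65257). CAMKK2 overlapped on those values (5071 to 6723 against 5237 to 5565).

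Across the 9 PANC-1 libraries, the genes whose totals were most like each member were named by Pearson's r on the log2 scale over 15249 genes. For AFAP1L2 these were PRAF2 (r = 0.99), MEX3B (0.99) and ZNF429 (0.99), and for LRRFIP1 IWS1 (0.99), BRD2 (0.98) and HNRNPU (0.98). WNK1 was nearest to KMT2A (0.98), ACACA (0.97) and SETD2 (0.97), and CAMKK2 to LTBP4 (0.99), TM7SF2 (0.98) and PLEKHH1 (0.98). WBP2 was nearest to DCBLD1 (0.99), RNPS1 (0.99) and PLK1 (0.98), and DIAPH1 to NSD2 (0.99), KIF22 (0.99) and YAP1 (0.99). With 3 groups of 3 libraries such values mainly track the group means, and 195 to 546 genes per member had r over 0.9. Among the members themselves r ran from -0.92, between LRRFIP1 and AFAP1L2, to 0.83, between WNK1 and AFAP1L2. By Spearman's rank correlation, at most 1 of the 3 nearest genes of each member was again among its nearest 3.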

How the data were processed

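The authors sequenced polyA-selected libraries. The submitters' processing notes name STAR 2.7.5a, SAMtools, Picard, FastQC and DESeq2, and the build hg38. The deposited signal is a normalized count for each FAST DB gene, obtained by the authors with a DESeq2 size factor per library, for the 9 PANC-1 and the 3 HPAF-II libraries apart. All values (100%, tolerance 0.01) were whole multiples of their library's smallest step. Because 82.1% to 84.8% of low values (up to 30 steps) were divisible by 3, a step cannot be taken for a fragment, and no count test was run. PANC-1 libraries summed to 321833858 to 348181159, HPAF-II libraries to 279777377 to 287232882. Precision rests on 3 libraries per group.

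The 9 PANC-1 libraries entered a single limma 3.58.1 fit (R 4.3.3) of log2(normalized count + 1), with a mean-variance trend and no block. Genes averaging 10 or more (22544) were tested, and p-values were Benjamini-Hochberg adjusted, with a threshold of 0.05. The procedure was first tested on simulated data. The pseudocount understates fold changes of low genes. HPAF-II was set beside PANC-1 on counts scaled to sum to 1000000 (pseudocount 0.01), untested. Python 3.11.15 with pandas 2.3.3, numpy 2.4.6 and scipy 1.17.1 gave the summaries, and matplotlib 3.10.9 the plots.

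The 6 genes, the partner and marker lists and the comparisons were chosen with earlier results of these data known. Named are the 6 genes, QKI and RBFOX2, the paralogs, for each member the up to 3 partners with the largest fold change past the threshold in each knockdown, and the 3 genes most like it among those with a symbol and a mean of 50 or more. For WNK1, 1 gene that this rule names is not reported here, though the counts include it. Exon sequences came from GENCODE v29. The alternatives were pseudocounts of 0.1 and 10, other filters, upper-quartile (75th percentile) rescaling, other fits and each library left out. The sum with MLPH and the shares and median sizes among genes averaging 5000 or more were added after the data were seen. The study's lists of splicing events gave genes, event types, exon positions and the direction of each event, and none of their other values were used.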

Additional observations from a re-analysis of the deposited data

How the results depend on the processing

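Of 324 alternative values of the member fold changes, none reversed a called direction, and 7 moved by more than the replicate spread, all under upper-quartile rescaling, besides the LRRFIP1 values summed with MLPH. That rescaling moved the share of higher calls with siQKI from 45.2% to 58.0%. Members called ran from 5 to 6 with siQKI, 3 to 4 with siRBFOX2 and 3 to 4 between the knockdowns. Beside them, the share of all tested genes called ran from 22.4% to 42.5%, 17.1% to 34.6% and 13.8% to 28.4%. WNK2 with siQKI, not called, reversed to 0.025 under upper-quartile rescaling and ran from -0.13 to 0.059 with libraries left out, and WBP2NL with siRBFOX2, not called, ran from -0.075 to 0.98. At an adjusted p of 0.01, 3854 genes were called with siRBFOX2 (5985 at 0.05) and 3105 between the knockdowns (4844). Between the lines, 7 of 54 alternative values moved, 6 of them on the deposited values without rescaling. Partner genes called ran from 24 to 34 with siQKI and 19 to 28 with siRBFOX2. Besides the losses given with each gene, a fit without the mean-variance trend lost further calls, at limma adjusted p of 0.0592 to 0.109. With siQKI these were DIAPH2, RHOB, MYD88, NEDD4 and WWOX, and with siRBFOX2 AFAP1, NEDD4L and PRKAB2. None of these calls passed at an adjusted p of 0.01 in the main fit either.

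Replicate numbers did not pair the samples (correlation of same-numbered deviations -0.03 to 0.02). With the number as a replicate block, 7336, 5891 and 4758 genes were called, which is 32.5%, 26.1% and 21.1% of those tested. Among them were 5, 4 and 4 of the 6 members.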
